A study of Mus musculus with 6 samples.

Results

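The genes described here encode the factors that start and elongate protein synthesis on cytoplasmic ribosomes, read in RNA-Seq libraries of coronary endothelial cells (ECs) from E15.5 mouse hearts. Members were the rows annotated as protein coding whose symbol began with Eif1 to Eif6 or with Eef1 or Eef2 and that reached 10 or more counts in 2 or more of the 6 libraries. Of 87 rows with such a symbol and annotation, 67 passed, among 16296 genes tested and 55416 rows in all. Of these 67, 66 held at least 10 counts in every library, the exception being the Y-linked *Eif2s3y*.

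The study deleted *Wt1*, which encodes a zinc finger transcription factor, from ECs while the coronary plexus formed. ControlΔEC embryos carried Pdgfb(CreERT2/+); Wt1(+/+); R26(mTmG/+) and Wt1KOΔEC embryos carried Pdgfb(CreERT2/+); Wt1(loxP/loxP); R26(mTmG/+), with 3 libraries of each genotype. Both genotypes therefore held the Cre driver and the reporter. The study's methods describe a cross that gave both genotypes in the same litter, and pregnant dams received tamoxifen (75 mg/kg) between E11.5 and E13.5. Cells were sorted from digested ventricles for membrane GFP, which marks recombination by a Cre driven from *Pdgfb*, so the libraries describe cells in which that driver was active and not all ECs of the heart.

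Initiation begins when eIF1, eIF1A and eIF3 hold the small ribosomal subunit open and eIF2, carrying GTP and initiator methionyl tRNA, joins it. The eIF4 factors bind the capped end of the mRNA, unwind it and bring it to that complex, and eIF5 and eIF5B complete the joining of the large subunit. Elongation then runs on eEF1A, which delivers each aminoacyl tRNA, and on eEF2, which moves the ribosome by a codon. Cells regulate the pathway mainly by phosphorylating eIF2α, which blocks its exchange factor eIF2B, and through the 4E-BP proteins, which withhold the cap-binding protein eIF4E. Many mRNAs for ribosomal proteins and elongation factors also carry a terminal oligopyrimidine (TOP) tract through which mTOR controls their translation.

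The libraries held 26037324 to 44779020 counts. *Wt1* itself was at 109.6 to 149 CPM (counts scaled to a common library size) in ControlΔEC and at 14.0 to 21.3 CPM in Wt1KOΔEC libraries (log2 fold change −2.91 ± 0.22 SE, edgeR adjusted p = 0.00319). The summed level of 9 endothelial markers overlapped between genotypes, at 5169 to 6454 CPM in ControlΔEC and 5407 to 6214 CPM in Wt1KOΔEC. Other measures separated the genotypes. The 18S ribosomal RNA row, *Rn18s*, took 13.2 to 15.3% of counts in ControlΔEC and 21.1 to 26.5% in Wt1KOΔEC. The study primed reverse transcription with oligo-dT, which targets poly(A) tails, so this share does not measure the content of ribosomal RNA. The 37 mitochondrially encoded rows summed to 49195 to 64177 CPM in ControlΔEC and 18362 to 47052 CPM in Wt1KOΔEC. Of those rows, 20 were at 0 in every library. Summed markers were higher without overlap in Wt1KOΔEC for the 7 endocardial genes (311 to 402 against 718 to 857 CPM), the 8 fibroblast genes (679 to 982 against 1347 to 1554 CPM), the 5 lymphatic endothelial genes (304 to 340.2 against 402 to 564 CPM) and the 8 epicardial genes (12.9 to 18.0 against 18.4 to 56.8 CPM), and lower for the 8 mural cell genes (179 to 369 against 144 to 163 CPM). Abundant genes weigh most in such sums. Between the genotype means *Plvap* went from 68.1 to 338 CPM, where the endocardial sum went from 354 to 780 CPM. *Ccl21a* went from 49.2 to 171 CPM, where the lymphatic sum went from 323 to 508 CPM. *Rgs5* went from 119 to 20.9 CPM, where the mural cell sum went from 305 to 152 CPM. At an unadjusted p under 0.05, 5 of the 7 endocardial, 5 of the 8 fibroblast, 2 of the 5 lymphatic and 2 of the 8 epicardial genes were higher and 3 of the mural cell genes were lower. All 8 macrophage genes were below 0 with a median log2 fold change of −1.08, and 5 were lower at that p, none was called by edgeR and 2 were by DESeq2, but their sum overlapped (258 to 787 against 189 to 273 CPM). Summed cardiomyocyte markers also overlapped (101 to 150 against 80.9 to 189 CPM), with no gene past that p. So did summed erythroid markers (6576 to 14369 against 5114 to 8508 CPM). Of the 8 erythroid genes 2 were lower at that p, and the embryonic globin *Hbb-y* was higher (2.57, adjusted p = 0.128). *Nkx2-5* of cardiomyocytes and *Myh11* of smooth muscle were at 0 in 4 libraries each. *Myh7* (31.1 to 87.8 CPM) and *Acta2* (33.3 to 55.5 CPM) of the same lists were read in every library. The study reads *Col1a1*, *Col3a1* and *Dcn* of the fibroblast list as venous markers, and *Rgs5* and *Kcnj8* of the mural cell list as arterial ones. In bulk libraries fewer cells of a type and less RNA per cell cannot be told apart, and the part of any of these measures in the differences below was not tested. The library names form a separate series for each genotype and run in order within it. A batch that follows the genotype therefore cannot be told apart from it.

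In ControlΔEC cells the factors ranged from 0.331 to 3897 CPM per kb when levels were divided by transcript length. *Eef1a1*, the main aminoacyl tRNA carrier of most tissues, stood first at 3897 ± 470.2 CPM per kb (SD, n = 3). *Eef2*, the translocase, followed at 578 ± 72.3 CPM per kb, with a spread that overlapped *Eif1* at 472 ± 125 CPM per kb. *Eif5a* at 438 ± 55.3 and *Eif4a1* at 383 ± 49.2 CPM per kb came next, both below *Eef2* by more than the SDs and not separated from each other or from *Eif1*. The most abundant members of the remaining families were lower: *Eif3k* among the eIF3 subunits at 130.8 ± 6.79, *Eif2s2* for eIF2 at 63.4 ± 9.41, *Eif2b2* for eIF2B at 53.4 ± 9.41, *Eif4ebp1* for the inhibitors at 29.0 ± 4.13 and *Eif2ak1* for the eIF2α kinases at 16.4 ± 1.56 CPM per kb. The lowest member was a methyltransferase gene of the elongation factor group at 0.331 ± 0.211 CPM per kb. The 67 genes together held 1.84 to 2.06% of all counts in ControlΔEC and 2.00 to 2.24% in Wt1KOΔEC.

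**Figure D1:**
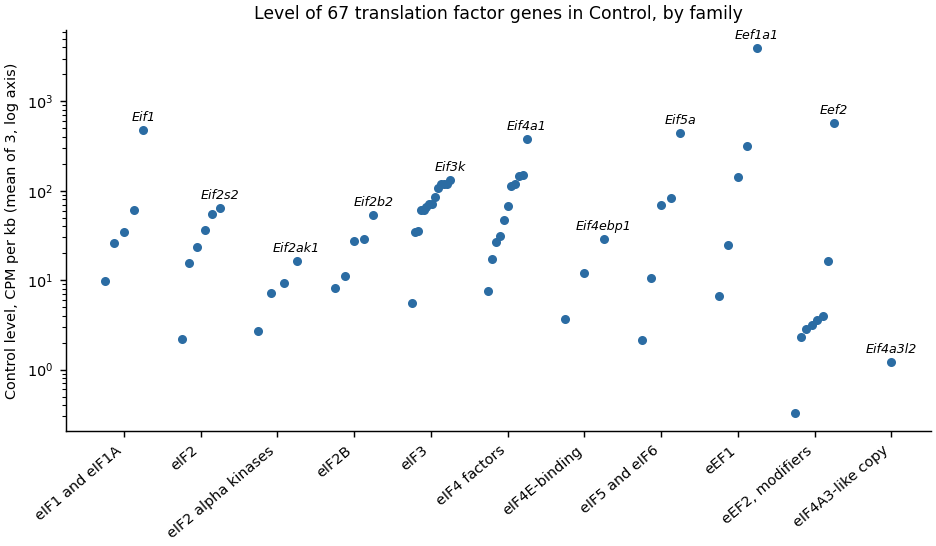
Mean level of each of the 67 members in the 3 ControlΔEC libraries, in CPM per kb of transcript on a log axis, with members sorted within each family and the most abundant one named. *Eef1a1* stands at 3897 CPM per kb, and *Eef2*, *Eif1*, *Eif5a* and *Eif4a1* lie between 383 and 578 CPM per kb.

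Deletion of *Wt1* was set against these levels in the ECs to ask whether the expression of the translation factors differed. No member was called at an adjusted p under 0.05 with an absolute log2 fold change above 0.58 (0 of 67, edgeR), where 0.0736% of all genes tested were called, and the lowest adjusted p among members was 0.198. At an unadjusted p under 0.05, 11 members were higher in Wt1KOΔEC, against 5.96% of all genes, and 4 were lower, against 7.12% of all genes. The 67 members had a median log2 fold change of 0.17 and 50 of them lay above 0, whereas the median over all genes was −0.03 and 48.0% lay above 0. In 17 members (25.4%) every Wt1KOΔEC library was above every ControlΔEC library, against 10.3% of all genes, and in 3 members (4.48%) every Wt1KOΔEC library was below, against 8.97% of all genes.

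The alternative DESeq2 fit, which called more genes in general, put 5 members at an adjusted p under 0.05 with a higher level, *Eef1d*, *Eif4ebp1*, *Eef1g*, *Eif5a* and *Eif4h*, and 1 with a lower level, *Eif3b*. The same calls, with no limit on the fold change, covered 2.01% of all genes in the higher and 2.21% in the lower direction. Leaving out single libraries moved the counts at an unadjusted p. Without Wt1KOΔEC replicate 1, 2 or 3 there were 2, 7 and 6 members higher, and without ControlΔEC replicate 1, Wt1KOΔEC replicate 2 or Wt1KOΔEC replicate 3 there were 2, 2 and 1 lower. Scaling by library size alone shifted the median of all genes to −0.18 and gave 5 members higher and 6 lower, with 38 of 67 above 0 and 51 above the median of all genes, compared with 52 above that median under TMM scaling.

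**Figure D2:**
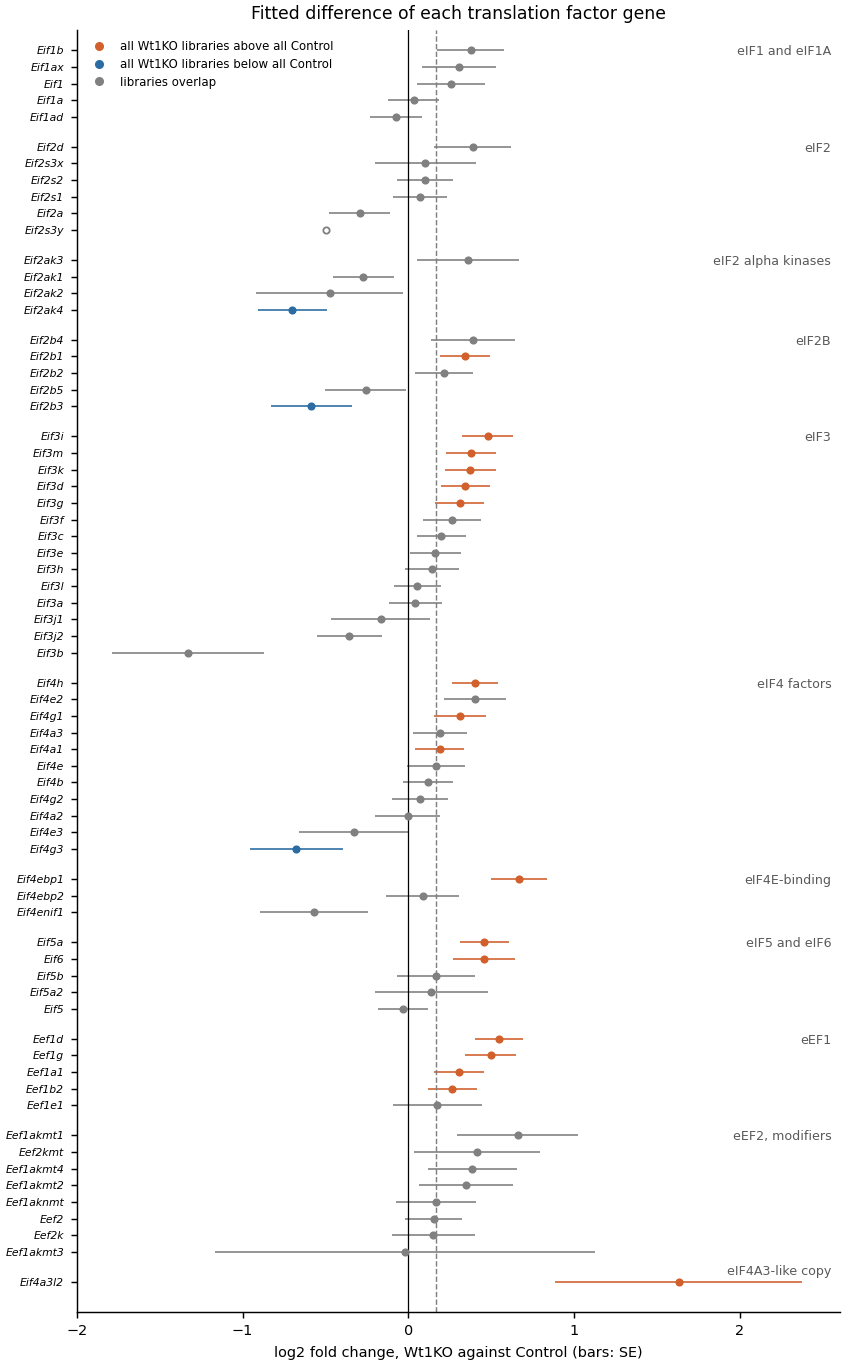
Fitted log2 fold change of Wt1KOΔEC over ControlΔEC for each of the 67 members, grouped by family, with bars for the SE (omitted for *Eif2s3y*, drawn open, which was read in 2 libraries only). Colour marks the 17 members whose Wt1KOΔEC libraries all lay above and the 3 whose libraries all lay below the ControlΔEC libraries, and the dashed line is the members' median of 0.17.

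The summed level of all 67 members was 20353, 16714 and 19412 CPM in ControlΔEC replicates 1, 2 and 3 and 24513, 20792 and 21007 CPM in Wt1KOΔEC replicates 1, 2 and 3. The 2 genotypes did not overlap, with a ratio of means of 1.17, but ControlΔEC replicate 1 and Wt1KOΔEC replicate 2 stood close to each other. Without *Eef1a1*, the largest contributor, the remaining members summed to 10684 to 12745 CPM in ControlΔEC and to 13027 to 14317 CPM in Wt1KOΔEC, a ratio of 1.14. Cytoplasmic ribosomal protein genes, whose products the factors act on, summed to 21407 to 25654 and 30852 to 36898 CPM, a ratio of 1.40.

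**Figure D3:**
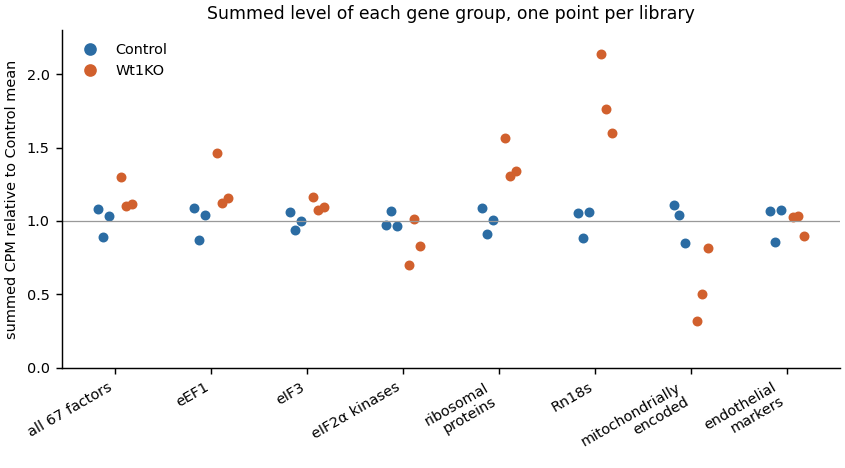
Summed CPM of each gene group in each library, divided by the ControlΔEC mean of the group. All 67 factors, eEF1 and eIF3 lie higher in Wt1KOΔEC without overlap, as do ribosomal proteins and *Rn18s*. The mitochondrially encoded rows lie lower, and the eIF2α kinases and the endothelial markers overlap. *Rn18s* was read in libraries primed with oligo-dT and does not measure the content of ribosomal RNA.

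Factors that open the small subunit came first in the pathway. All 5 genes of the eIF1 and eIF1A family overlapped between genotypes, and their median log2 fold change was 0.26 (0.11 with scaling by library size alone). *Eif1*, which guards the choice of start codon, was at 718, 449 and 764 CPM in ControlΔEC and 802, 714 and 789 CPM in Wt1KOΔEC (log2 fold change 0.26 ± 0.20 SE, adjusted p = 0.686). Its less abundant paralogue *Eif1b* was at 29.8 to 43.3 CPM against 42.7 to 49.96 CPM in Wt1KOΔEC (0.37 ± 0.20, adjusted p = 0.479). The eIF1A genes *Eif1a* (0.03 ± 0.15) and X-linked *Eif1ax* (0.31 ± 0.22) had adjusted p of 0.970 and 0.640.

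The next family held the subunits of eIF2, which carries the initiator tRNA, and factors that can substitute for it. None of its 6 genes separated by genotype (median log2 fold change 0.08, and −0.06 with scaling by library size alone). *Eif2a*, which encodes a substitute and not a subunit, was at 45.3 to 61.5 CPM in ControlΔEC and 39.9 to 46.6 CPM in Wt1KOΔEC (−0.29 ± 0.18, adjusted p = 0.575). The γ subunit of eIF2, the GTPase, is encoded in the mouse by *Eif2s3x* on the X chromosome, which escapes X inactivation, and by *Eif2s3y* on the Y chromosome. *Eif2s3y* was at 0, 30.2 and 0 CPM in ControlΔEC replicates 1, 2 and 3 and at 0, 21.4 and 0 CPM in Wt1KOΔEC replicates 1, 2 and 3. Replicate 2 of each genotype was thus the only one with reads of this gene, as with the Y-linked genes *Ddx3y*, *Uty* and *Kdm5d*, and *Xist*, the RNA of the inactive X, was at 0 and 3.71 CPM there and at 314 to 717 CPM in the other libraries. In the same 2 libraries *Eif2s3x* was at 124 and 144 CPM, below its range of 221 to 284 CPM in the other 4. Adding both copies left replicate 2 of each genotype at 155 and 165 CPM, still below the other libraries. The fitted genotype difference of *Eif2s3x* was 0.10 ± 0.31 (adjusted p = 0.942). Its spread within each genotype followed the Y-linked reads, of which each genotype had 1 library. *Eif2s2*, the β subunit, was at 134 to 175 CPM and 158 to 192 CPM (0.10 ± 0.17, adjusted p = 0.888).

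**Figure D4:**
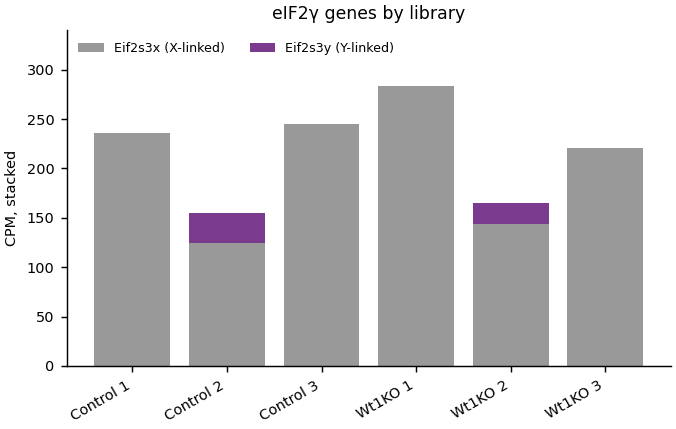
CPM of the X-linked and the Y-linked gene for eIF2γ in each library, stacked. *Eif2s3y* is read in replicate 2 of each genotype only, at 30.2 and 21.4 CPM, and those libraries also have the lowest *Eif2s3x*, at 124 and 144 CPM.

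The kinases that phosphorylate eIF2α were the only initiation family whose median was below 0 under TMM scaling (−0.37 over 4 genes, and −0.51 by library size alone). *Eif2ak4*, which encodes the amino acid sensor GCN2, was at 42.1, 52.1 and 54.0 CPM in ControlΔEC and at 33.4, 33.4 and 24.4 CPM in Wt1KOΔEC. All Wt1KOΔEC libraries were below all ControlΔEC libraries, with a log2 fold change of −0.70 ± 0.21 (adjusted p = 0.235 with edgeR and 0.0617 with DESeq2). The heme-regulated kinase *Eif2ak1* was at 65.0 to 78.4 CPM and 51.4 to 72.1 CPM (−0.27 ± 0.18, adjusted p = 0.610). *Eif2ak2*, the double-stranded RNA sensor PKR, was low, at 8.56 to 16.1 CPM and 3.99 to 10.8 CPM (−0.48 ± 0.44, adjusted p = 0.747). *Eif2ak3*, the endoplasmic reticulum stress kinase PERK, had the opposite sign, at 24.0 to 45.2 CPM and 27.4 to 51.1 CPM (0.36 ± 0.31, adjusted p = 0.713). Summed, the 4 kinases overlapped, at 160 to 176 CPM in ControlΔEC and 116 to 167 CPM in Wt1KOΔEC.

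Subunits of eIF2B, the exchange factor that phosphorylated eIF2 blocks, differed in sign. *Eif2b3*, the γ subunit of the catalytic part, was at 25.7, 25.5 and 23.0 CPM in ControlΔEC and 18.8, 12.4 and 18.3 CPM in Wt1KOΔEC, without overlap (−0.59 ± 0.24, adjusted p = 0.359). *Eif2b1*, the α subunit of the regulatory part, was at 55.6, 52.6 and 55.6 CPM and 67.2, 73.1 and 67.2 CPM, also without overlap and in the other direction (0.34 ± 0.15, adjusted p = 0.378). *Eif2b2* overlapped (0.22 ± 0.17, adjusted p = 0.692). The 5 subunits summed to 236 to 279.9 CPM in ControlΔEC and 267 to 302 CPM in Wt1KOΔEC.

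The scaffold complex eIF3 had 14 genes measured, with a median log2 fold change of 0.18 (0.03 by library size alone) and 11 of them above 0. In 5 of the 14 (35.7%) all Wt1KOΔEC libraries lay above all ControlΔEC libraries, against 10.3% of all genes. The 14 summed to 2146 to 2421 CPM in ControlΔEC and 2448 to 2657 CPM in Wt1KOΔEC. *Eif3i* was at 131.5, 118 and 116 CPM in ControlΔEC and 193, 158 and 158 CPM in Wt1KOΔEC (0.48 ± 0.15, adjusted p = 0.260 with edgeR and 0.0609 with DESeq2). *Eif3m* was at 145 to 172 CPM and 192 to 227 CPM (0.38 ± 0.15, adjusted p = 0.339), and *Eif3k* at 103 to 115 CPM and 126 to 159 CPM (0.37 ± 0.15, adjusted p = 0.348). In none of these 3 did the genotypes overlap.

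*Eif3b*, a core subunit that organizes the complex on the small subunit (chr5:140405057-140429117, + strand, GRCm39), had the lowest log2 fold change of all members and the most uneven libraries. It was at 136, 147 and 33.1 CPM in ControlΔEC and 39.9, 49.9 and 36.2 CPM in Wt1KOΔEC. ControlΔEC replicate 3 was thus below every Wt1KOΔEC library, while the other ControlΔEC libraries were far above all of them. The fitted log2 fold change was −1.33 ± 0.46 (adjusted p = 0.276 with edgeR and 0.0368 with DESeq2). Without ControlΔEC replicate 3 it was −1.75 with an edgeR adjusted p of 0.0277, and with all libraries but no filter on low counts it was −1.33 with an edgeR adjusted p of 0.0245, so the call changed with the tool, the filter and that library. The other eIF3 genes named above did not share this pattern, with ControlΔEC replicate 3 at 116 CPM for *Eif3i*, 115 CPM for *Eif3k* and 172 CPM for *Eif3m*, close to the other ControlΔEC libraries. *Gspt1*, which encodes the release factor eRF3a, had a like order of libraries, at 147, 130 and 38.6 CPM in ControlΔEC and 55.2, 52.4 and 35.3 CPM in Wt1KOΔEC (−1.14, adjusted p = 0.308).

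Since WT1 binds GC-rich DNA, the RefSeq promoter windows of the members were searched on both strands for GCGTGGGNG, the core that WT1 shares with EGR factors. Of 52 members with an entry in the table (GRCm38.p6), 2 held it within 250 bases before a listed start, *Eif3b* and *Eif4e*, which is 3.85% of them, and 1.9% of 27025 genes did. A second GC-rich form, GCGGGGGCG, was in the window of *Eef2k* alone (1.92% of members and 2.93% of all genes). The pieces around both GCGTGGGNG matches are shown because *Eif3b* had the lowest log2 fold change of all members, with the match in capitals and each piece written 5′ to 3′ on the strand of its gene.
Eif3b, chr5:140419205-140419264, + strand, GRCm38.p6: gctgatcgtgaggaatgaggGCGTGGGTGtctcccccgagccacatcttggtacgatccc
Eif4e, chr3:138526001-138526060, + strand, GRCm38.p6: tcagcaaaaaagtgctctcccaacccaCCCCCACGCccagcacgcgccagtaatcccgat
In *Eif3b* the match began 80 bases before the start, and in *Eif4e* it lay on the opposite strand, from 163 bases before one of its starts. *Eif4e* itself was at 128 to 182 CPM in ControlΔEC and 162 to 195 CPM in Wt1KOΔEC (0.17 ± 0.18, adjusted p = 0.782). A match of these letters is a description of the window and not a measured site, and binding was not measured in these libraries.

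Among the eIF4 factors that bind and unwind the mRNA, 8 of 11 genes were above 0 and the median log2 fold change was 0.17 (0.02 by library size alone). *Eif4h*, a partner that stimulates the helicase (chr5:134648575-134668400, − strand, GRCm39), was at 332.5, 296 and 296 CPM in ControlΔEC and 415, 426 and 381 CPM in Wt1KOΔEC. Its groups did not overlap (0.40 ± 0.14, adjusted p = 0.280 with edgeR and 0.0496 with DESeq2). Of the helicases themselves, *Eif4a1* was at 579 to 735 CPM and 739 to 809.9 CPM (0.19 ± 0.15, adjusted p = 0.682), and *Eif4a2* was at 247 to 319 CPM and 229 to 345 CPM (−0.0048 ± 0.19, adjusted p = 0.996). A processed pseudogene named for this pair, *Eif4a-ps4*, went the other way, at 64.4, 44.2 and 40.8 CPM in ControlΔEC and 28.2, 25.0 and 27.8 CPM in Wt1KOΔEC, below both helicases in every library.

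The scaffold genes of eIF4F differed in sign. *Eif4g3* was at 82.1, 155 and 78.6 CPM in ControlΔEC and 76.7, 69.9 and 51.2 CPM in Wt1KOΔEC (−0.68 ± 0.28, adjusted p = 0.359), with the lowest ControlΔEC library just above the highest Wt1KOΔEC library and ControlΔEC replicate 2 far above the others. Without ControlΔEC replicate 2 its log2 fold change was −0.28. *Eif4g1* was at 153 to 197 CPM and 201 to 235 CPM, without overlap in the higher direction (0.31 ± 0.16, adjusted p = 0.457). *Eif4g2*, which lacks the cap-binding partner's site and serves other modes of initiation, was the third most abundant member by CPM, at 903 to 1321 CPM and 1171 to 1278 CPM (0.07 ± 0.17, adjusted p = 0.925). The cap-binding paralogues *Eif4e2* (0.40 ± 0.19, adjusted p = 0.405) and *Eif4e3* (−0.33 ± 0.33, adjusted p = 0.770) both overlapped.

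The inhibitor *Eif4ebp1*, which encodes the mTOR target 4E-BP1 (chr8:27750350-27805206, + strand, GRCm39), had the smallest p of all members. It was at 65.0, 60.5 and 48.9 CPM in ControlΔEC and 99.97, 84.6 and 92.1 CPM in Wt1KOΔEC, so that every Wt1KOΔEC library was higher. Its mean was 58.1 ± 8.28 CPM (SD, n = 3) against 92.2 ± 7.66 CPM, a ratio of 1.59, and its log2 fold change was 0.67 ± 0.17 (adjusted p = 0.198 with edgeR and 0.0199 with DESeq2). With any single library left out the log2 fold change stayed between 0.56 and 0.75. The paralogue *Eif4ebp2* was at 20.6 to 25.7 CPM and 21.6 to 26.6 CPM (0.09 ± 0.22, adjusted p = 0.933), and *Eif4ebp3* was at 0 in 5 libraries with 2 counts in ControlΔEC replicate 3. *Eif4enif1*, the 4E transporter, was at 31.7 to 60.1 CPM and 17.9 to 35.3 CPM, with overlap (−0.57 ± 0.33, adjusted p = 0.517).

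*Eif5a*, whose product carries the hypusine residue and keeps ribosomes moving through difficult stretches (chr11:69807422-69827276, − strand, GRCm39), was at 686, 560.3 and 551 CPM in ControlΔEC and 879, 809 and 782 CPM in Wt1KOΔEC. All Wt1KOΔEC libraries were higher (0.46 ± 0.15, adjusted p = 0.260 with edgeR and 0.0368 with DESeq2). Its paralogue *Eif5a2* was at 7.49 to 15.4 CPM and 10.2 to 13.4 CPM (0.14 ± 0.34, adjusted p = 0.928). *Eif6*, which keeps the ribosomal subunits apart and takes part in the maturation of the large one, was at 137, 95.0 and 141 CPM and 184, 170 and 158 CPM, without overlap (0.46 ± 0.19, adjusted p = 0.345). The 5 genes of the group summed to 1081 to 1237 CPM in ControlΔEC and 1404 to 1512 CPM in Wt1KOΔEC.

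In the eEF1 group, formed by symbol, all 5 genes were above 0 under every scaling tried (median log2 fold change 0.30, and 0.15 by library size alone). In 4 of the 5 (80%) all Wt1KOΔEC libraries lay above all ControlΔEC libraries, against 10.3% of all genes. The other was *Eef1e1*, which does not encode a subunit of eEF1 and overlapped (0.17 ± 0.27, adjusted p = 0.871). *Eef1d*, the δ subunit of the exchange factor that recharges eEF1A (chr15:75766054-75782564, − strand, GRCm39), was at 109, 98.9 and 108 CPM in ControlΔEC and 166, 147 and 149 CPM in Wt1KOΔEC (0.55 ± 0.14, adjusted p = 0.209 with edgeR and 0.0112 with DESeq2). *Eef1g*, the γ subunit (chr19:8944369-8955843, + strand, GRCm39), was at 643, 537 and 574 CPM and 941, 735 and 799.9 CPM (0.50 ± 0.15, adjusted p = 0.245 with edgeR and 0.0283 with DESeq2). In both genes every Wt1KOΔEC library was above every ControlΔEC library.

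*Eef1b2*, the third subunit, singled out after its values were seen, was at 301, 250.2 and 270.5 CPM and 360.2, 306 and 322 CPM (0.27 ± 0.15, adjusted p = 0.511) and did not overlap either. *Eef1a1* (chr9:78384916-78396778, − strand, GRCm39) was at 7608, 6029.7 and 7334 CPM in ControlΔEC and 10196, 7764 and 7948 CPM in Wt1KOΔEC. ControlΔEC replicate 1 lay just under Wt1KOΔEC replicate 2, and Wt1KOΔEC replicate 1 stood above the rest (0.30 ± 0.15, adjusted p = 0.443). Leaving out Wt1KOΔEC replicate 1 reduced its log2 fold change to 0.17. *Eef1a2*, the form of adult muscle and neurons, had no count in any library, which allows up to 0.0608 to 0.119 CPM at 3 counts per library. *Eef1a1* has many processed copies in the genome, and a processed copy named *Eef1a1-ps1* held 28 to 137 counts against 200840 to 398391 for the gene itself.

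**Figure D5:**
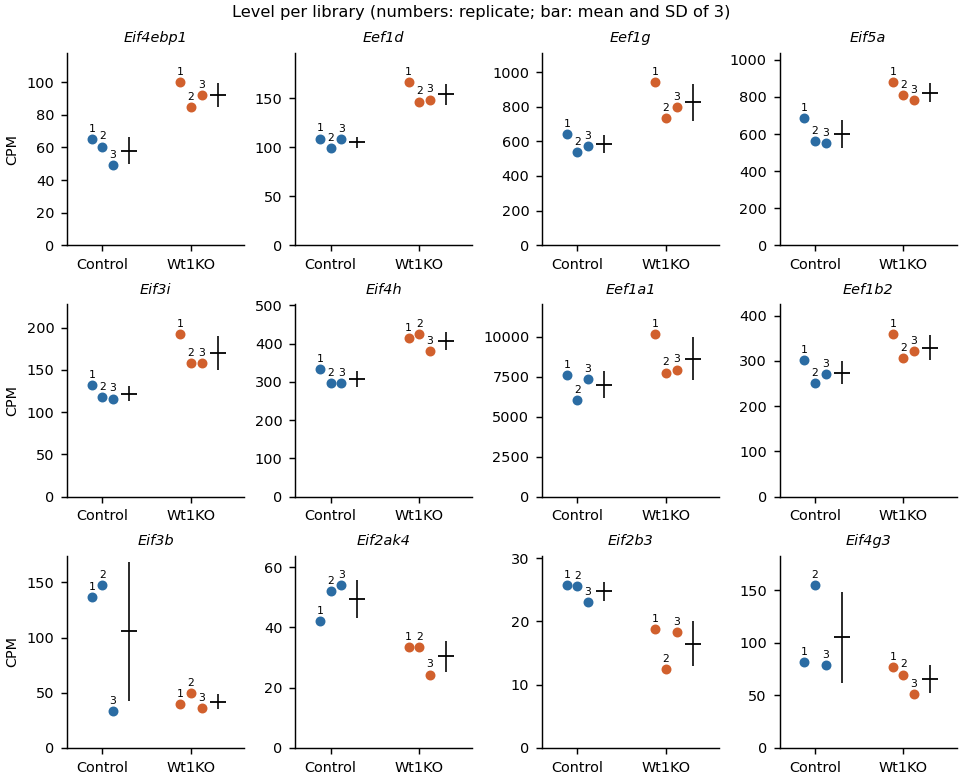
CPM of 12 members in each library, numbered by replicate, with the mean and SD of 3 beside the points and axes that start at 0. In 11 of the panels the genotypes do not overlap, and in *Eif3b* ControlΔEC replicate 3 lies below all Wt1KOΔEC libraries. Most panels show members chosen for a small unadjusted p, which favours separated libraries.

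Of the translocase and the enzymes that modify elongation factors, 7 of 8 genes were above 0 (6 of 8 by library size alone) and all overlapped between genotypes. *Eef2* was at 2039, 1696 and 1619 CPM in ControlΔEC and 2367, 1974 and 1606 CPM in Wt1KOΔEC (0.15 ± 0.17, adjusted p = 0.805). Wt1KOΔEC replicate 3 was the lowest of all 6 libraries for *Eef2*, so the direction differed among the mutant libraries.

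Paralogues and copies limit how some rows can be read, because RSEM divides reads that match several genes. *Eif3j1* was at 27.7 to 32.6 CPM and 15.2 to 32.6 CPM (−0.17 ± 0.30, adjusted p = 0.894), and its copy *Eif3j2* at 65.3 to 96.7 CPM and 53.6 to 71.5 CPM (−0.36 ± 0.20, adjusted p = 0.504). The low row *Eif4a3l2*, annotated as protein coding and named for its likeness to *Eif4a3*, had the highest log2 fold change of all members, 1.63 ± 0.75. It was at 2.26, 0.385 and 2.29 CPM in ControlΔEC and 4.48, 5.00 and 5.78 CPM in Wt1KOΔEC (adjusted p = 0.397). Of the 20 rows that did not pass, 16 were copies of *Eif1ad* with at most 4 counts in a library, and the others were *Eef1a2*, *Eif4e1b*, *Eif4ebp3* and *Eif4a3l1*, of which the last reached 12 counts in 1 library. In all, 15 of the 20 had no count in any library.

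Genes of the same pathway outside the members were read from lists. Of 28 other cytoplasmic translation factors and regulators, none was called by edgeR, 1 was higher and 3 were lower at an unadjusted p under 0.05, and their median log2 fold change was 0.09. The higher one was *Pabpc4*, a poly(A)-binding protein, at 8.66 to 11.1 CPM in ControlΔEC and 15.1 to 28.6 CPM in Wt1KOΔEC (1.17 ± 0.30 SE, adjusted p = 0.207). The lower ones were *Gspt1*, *Paip1*, which bridges poly(A)-binding protein and eIF4A (27.9 to 34.0 CPM against 6.6 to 24.3 CPM, adjusted p = 0.309), and *Impact*, whose product restrains GCN2 (18.2 to 30.4 CPM against 10.9 to 16.8 CPM, adjusted p = 0.295). *Impact* and *Eif2ak4* both had every Wt1KOΔEC library below every ControlΔEC library, as had 8.97% of all genes and 4 of the 28 genes on this list.

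Of 16 targets of the integrated stress response, the program that follows eIF2α phosphorylation, 14 were above 0 and the median was 0.39. None was called by edgeR. At an unadjusted p under 0.05, 4 were higher (25%, against 5.96% of all genes) and 1 was lower (6.25%, against 7.12%). *Atf4*, the central transcription factor of the response, was at 220 to 327 CPM in ControlΔEC and 347 to 370 CPM in Wt1KOΔEC (0.31, adjusted p = 0.530). It did not overlap, as was so in the higher direction for 5 of the 16 (31.25%) and 10.3% of all genes. *Ppp1r15a*, the phosphatase subunit GADD34 that reverses the phosphorylation, was at 234 to 300 CPM and 349 to 385 CPM (0.45, adjusted p = 0.269), and *Phgdh*, *Nupr1* and *Sesn2* were the other 3 at that p in the higher direction. *Slc7a11*, the cystine transporter, was the lower one, at 20.5 to 33.2 CPM and 4.17 to 18.8 CPM (−1.35, adjusted p = 0.295).

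Of 12 TOP mRNAs outside the members, 10 were above 0, 2 were higher at an unadjusted p under 0.05 and the median was 0.26. These 2 were *Fau* (138 to 227 CPM against 277 to 352 CPM, adjusted p = 0.221), which encodes a ribosomal protein fused to a ubiquitin-like part, and *Npm1* (706 to 819 CPM against 929.9 to 1125 CPM, adjusted p = 0.267). Mitochondrial translation factors, which serve the other ribosome of the cell, had 1 of 9 genes higher and none lower at an unadjusted p under 0.05, *Tsfm* (adjusted p = 0.319), with a median of 0.20.

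Ribosomal protein genes were the part of the translation machinery set beside the factors. All 80 tested were above 0, 61 were higher at an unadjusted p under 0.05 and none was lower, 1 was called by edgeR, and their median was 0.49, where the 67 factors had 50 above 0, 11 higher, 4 lower, none called and a median of 0.17. Both sets of genes were read in the same libraries, in which *Rn18s* and the marker lists above also separated the genotypes.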

How the data were processed

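RNA-Seq libraries of mGFP+ cells from E15.5 hearts were compared, 3 per genotype. The authors made them with SMART-seq2, mapped reads with STAR 2.7.8a and quantified genes with RSEM 1.3.0, and the deposited values are estimated counts per gene, written as whole numbers without normalization. The submitters' processing notes name GRCm38 and the study's methods name GRCm39 with a GENCODE annotation. The table holds no coordinates, and those printed come from GENCODE on GRCm39, or from RefSeq on GRCm38.p6 for the promoter pieces. Columns were assigned to samples by the library names in the labels.

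The test was edgeR 4.0.16 in R 4.3.3 (TMM, quasi-likelihood F test on genotype, Benjamini-Hochberg over all 16296 genes that reached 10 counts in 2 libraries or more). DESeq2 1.42.0 and limma 3.58.1 were alternatives. SE was taken as |log2 fold change| / √F, CPM uses TMM-scaled library sizes, and levels per kb use the length of the canonical transcript. Replicates are biological per the labels, and no pair agreed within counting noise. Totals of 26037324 to 44779020 counts set the depth, and floors of 3 counts cover counting error only. The labels do not tie replicate numbers to litters. Deviations of same-numbered libraries had correlations of 0.057, 0.0045 and 0.020, which with 3 libraries per genotype cannot show whether the numbers pair the samples. The scripts were tested on simulated counts. Members and lists were chosen with earlier results of these data known. Named genes were the 8 higher and 8 lower members with the smallest p, the most abundant of each family, set paralogue groups and the eIF2α kinases, and up to 4 genes a list by p. *Eef1b2*, *Eef1e1*, *Eif2b1*, *Slc7a11*, *Atf4* and *Eif4a-ps4* were added after their values were seen. Single marker genes were named outside these rules. One gene of the list of TOP mRNAs is not reported here and is left out of that list's counts.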

Additional observations from a re-analysis of the deposited data

How the results depend on the processing

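Of the fitted values of named members, 790 kept their sign and their side of the threshold under the alternatives, 4 moved past it and 25 changed sign. The 4 were *Eif4ebp1* with DESeq2 (0.66) and *Eif3b* with DESeq2 (−1.34), with no filter on low counts (−1.33) and without ControlΔEC replicate 3 (−1.75). No member was called in the main fit, so any value of the same sign that stayed uncalled counted as kept, whatever its size. *Eef2*, for example, counted as kept under library size alone, at 4.6e-05 against 0.15 in the main fit. The number of members called was 0 of 67, and it was 2 with DESeq2, 1 with no filter and 0 to 1 with single libraries left out. Over all genes tested, the calls were 12 of 16296 in the main fit, 599 of 16296 with DESeq2 and 296 of 24536 with no filter. Without ControlΔEC replicate 3, which gave the 1 member called, they were 37 of 15675. Members higher at an unadjusted p under 0.05 numbered 11, with 5 under library size alone, 7 with no filter, 6 with a length and GC offset, 5 with that offset and a replicate block, and 2 to 14 with libraries left out, where fewer samples enter. Members lower numbered 4, with 1 to 4 when libraries were left out. Their median of 0.17 was 0.024 under library size alone and 0.12 to 0.24 with libraries left out, and the replicate block gave 0.20 with 10 members higher, 3 lower and none called. The block changed no call of a member and lowered the calls over all genes from 12 to 5, and whether replicate numbers mark litters is not known. DESeq2 called 599 genes in all.

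With all libraries, the members that changed sign lay between −0.17 (*Eif3j1*) and 0.14 (*Eif5a2*), except *Eif2s3y* at −0.50. Under library size alone *Eif1a* was −0.11, *Eif2s2* −0.046, *Eif2s3x* −0.044, *Eif4ebp2* −0.070, *Eif4g2* −0.073 and *Eif5a2* −0.019, and with upper-quartile scaling *Eif4a2* was 0.018. With libraries left out, alone or as replicate 2 of both genotypes (chosen after seeing the data), *Eif1a* ranged from −0.041 to 0.12, *Eif2s2* from −0.019 to 0.16, *Eif2s3x* from −0.15 to 0.33, *Eif2s3y* from −1.08 to 0.086, *Eif3j1* from −0.34 to 0.11, *Eif4a2* from −0.20 to 0.12, *Eif4ebp2* from −0.0089 to 0.20, *Eif4g2* from −0.12 to 0.18 and *Eif5a2* from −0.068 to 0.47. The cause of these changes was not tested. Depth limits the rows at or under 3 counts per library, and 3 libraries per genotype limit the rest.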
